A study of Mus musculus with 20 samples.

Results

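The 10 genes described here encode the enzymes and regulators of de novo lipogenesis, the synthesis of fatty acids from carbohydrate carbon: Fasn, Acaca, Acacb, Acly, Me1, Thrsp, Pklr, Acss2, Srebf1 and Mlxipl. They were taken by name, as the non-control probes whose gene name in the files, or current symbol by accession, was 1 of the 10, which gave 20 of the 41174 probes on each array and 10 of 28785 gene symbols. Each gene was read by its brightest probe, and its other probes are given where they differ. Liver and white adipose tissue (WAT) came from male C57BL/6 mice of 7 months, either wildtype (WT) or lacking CD44 (CD44KO), with 5 arrays for each genotype and tissue. All of these mice, controls included, had eaten a diet with 35% fat for 21 weeks and are called WT(HFD) and CD44KO(HFD). The figure of 35% is that of the labels, which do not say whether it is by weight or by energy, and the methods name the diet as D12492. No arrays of mice on normal chow were analysed here. The methods describe the CD44-deficient line as backcrossed onto C57BL/6J and name no tissue-restricted deletion, so a difference in 1 tissue cannot be assigned to the loss of CD44 from that tissue. The methods count the replicates of a group as mice, while the labels do not say that they are separate animals and tie no liver to the WAT of the same animal.

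In lipogenesis, citrate made in mitochondria is carried to the cytosol and split by ATP citrate lyase (Acly) into acetyl-CoA, while acetyl-CoA synthetase 2 (Acss2) makes acetyl-CoA from acetate. Acetyl-CoA carboxylases 1 and 2 (Acaca and Acacb) convert it to malonyl-CoA, and fatty acid synthase (Fasn) extends malonyl-CoA to palmitate with NADPH, part of which malic enzyme 1 (Me1) provides. Liver pyruvate kinase (Pklr) feeds the route from glycolysis, and Thrsp, also called Spot 14, is a small protein that promotes lipogenesis. SREBP-1, the product of Srebf1, transmits the insulin signal to these genes and ChREBP, the product of Mlxipl, the carbohydrate signal. Liver and adipose tissue are the main sites of the pathway, and fat feeding is known to lower it.

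Values are log2 signals with each array's 75th percentile subtracted, so a gene at that percentile reads 0, and differences are on the log2 scale. A level of 1 probe cannot be set against the level of another probe. The files place the brightest probes on build mm7, for example Me1 at chr9:86685035-86685095, Fasn at chr11:120916191-120916250, Acacb at chr5:113472402-113472462, Mlxipl at chr5:134108915-134108974 and Srebf1 at chr11:60281270-60281329, and no annotation of exons on that build was used here. On the liver arrays, the share of spots well above background ran from 57.4% to 61.9%. In WAT, 9 arrays lay between 63.2% and 69.5%, and WT(HFD) WAT replicate 1 stood apart with 89.5% and a correlation with the other WT(HFD) WAT arrays as low as 0.826, against at least 0.971 among the others. That array also held the lowest value of 8 of the 10 genes in WAT. The WAT differences of the brightest probes of the 10 genes are therefore given with and without it. Liver arrays lay on slides 1 to 3 and WAT arrays on slides 4 to 6, and each tissue was read on its own scanner. Tissue, slide and scanner therefore cannot be told apart. The brightest Cd44 probe was lower in CD44KO(HFD) than in WT(HFD) by 4.21 (SE 0.20) in liver and by 4.57 (SE 0.19) in WAT, with no overlap of the genotypes in either tissue (limma adjusted p = 6.65e-06 and 7.64e-06). It was still well above background on 3 of the 5 CD44KO(HFD) liver arrays and all 5 CD44KO(HFD) WAT arrays. A second Cd44 probe gave -4.57 in liver and -4.28 in WAT. The third and dimmest did not fall in liver (0.20, limma adjusted p = 0.888) and was not tested in WAT. All 9 hepatocyte markers on the array were well above background on every liver array and all 10 adipocyte markers on every WAT array. This mark alone separates the tissues poorly. It also held for 6 hepatocyte markers on every WT(HFD) WAT array, 8 on every CD44KO(HFD) WAT array, and 6 adipocyte markers on every array of each liver group. By summed linear level, hepatocyte markers were at least 2187 in liver and at most 50.8 in WAT. Adipocyte markers were at most 133 in liver and at least 565 in WAT.

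In WT(HFD) mice all 10 genes had higher means in liver than in WAT, except that under quantile normalization Fasn (-0.05) and Me1 (-0.34) turned the other way. The difference passed the threshold of an adjusted p of 0.05 for 9 of the 10 genes, against 34.7% of all probes that were higher in liver (68.3% in either direction), and the groups did not overlap for the same 9, against 27.6% of all probes that did not overlap in that direction. Over all probes 9852 passed as higher in liver and 9513 as lower, a split that became 11093 and 6788 with normexp background correction. Pklr, the liver form of pyruvate kinase, had the largest difference, against a low signal that was still well above background on all 5 WT(HFD) WAT arrays. Its values ran from 1.99 to 2.66 on the WT(HFD) liver arrays and from -5.99 to -2.36 on the WT(HFD) WAT arrays, a difference of 6.91 (SE 0.62, adjusted p = 4.65e-06) that ranged from 5.45 to 7.69 over the alternatives. Mlxipl was 3.98 (SE 0.23) higher in liver, 15.8-fold, and Thrsp 3.17 (SE 0.21), 9.0-fold. Over the alternatives they ranged from 3.47 to 4.09 and from 2.03 to 3.28. The 2 carboxylases differed by like amounts, Acacb by 2.92 (SE 0.24) and Acaca by 2.59 (SE 0.22), and Srebf1 by 2.60 (SE 0.21). Over the alternatives Acacb ranged from 2.36 to 3.13, Acaca from 1.82 to 2.91 and Srebf1 from 1.33 to 2.71. Smaller differences were measured for Acss2 (1.96, SE 0.24), Fasn (1.63, SE 0.28) and Acly (1.36, SE 0.17). The order of these differences does not separate Acacb, Srebf1 and Acaca, nor Acss2 from Fasn, beyond their errors. Me1 was the exception, with values of 3.94 to 4.23 in liver and 2.90 to 4.12 in WAT and a difference of 0.42 (SE 0.21, adjusted p = 0.0921). The second probe under the old name of Me1, Mod1, which is outside the 20, was higher in liver by 1.67 (SE 0.23, adjusted p = 0.000113), so the probes for this gene differ.

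The stretches of 120 bases before the annotated start of Me1, Fasn, Acacb and Mlxipl are shown as examples. They are from the RefSeq promoter table on build GRCm38.p6, are written 5′ to 3′ on the strand of the gene, and end on the base before the start. Me1 and Mlxipl have 2 annotated starts each, of which the outermost is shown. By the brightest probes, Me1 alone of the genes shown passed the threshold in a comparison of genotypes, that of the effect between tissues. Srebf1, called in liver, is not shown. Capitals mark 3 motifs on either strand: the CCAAT box (CCAAT), the GC box (GGGCGG) and the E-box CACGTG, the last of which reads the same on both strands.
Me1, minus strand, chr9:86695915-86696034: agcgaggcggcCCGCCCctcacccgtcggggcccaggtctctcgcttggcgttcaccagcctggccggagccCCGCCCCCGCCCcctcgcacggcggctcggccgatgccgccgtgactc
Fasn, minus strand, chr11:120824548-120824667: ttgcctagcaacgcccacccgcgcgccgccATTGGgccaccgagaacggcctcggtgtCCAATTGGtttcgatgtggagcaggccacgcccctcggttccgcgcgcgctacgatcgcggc
Acacb, plus strand, chr5:114165398-114165517: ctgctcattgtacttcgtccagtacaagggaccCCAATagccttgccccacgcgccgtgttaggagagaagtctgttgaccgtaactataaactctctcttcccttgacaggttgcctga
Mlxipl, plus strand, chr5:135089770-135089889: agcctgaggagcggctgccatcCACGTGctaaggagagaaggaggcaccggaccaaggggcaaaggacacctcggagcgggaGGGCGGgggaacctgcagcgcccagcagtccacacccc

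The Me1 stretch held 3 GC boxes on the opposite strand, beginning 109, 48 and 42 bases before the start, the last 2 of them side by side. Fasn had a CCAAT box on the opposite strand 90 bases before the start, and 2 more, 1 on each strand, that overlap in the run beginning 62 bases before it. Acacb had 1 CCAAT box 87 bases before its start, and Mlxipl an E-box 98 and a GC box 38 bases before. All 10 genes had an entry, with 15 promoters in all because some genes have several starts. Over the whole window of 250 bases before and 50 after the start, CCAAT occurred in 10 of these 15 promoters and in 37.4% of all 32851 promoters of the table, GGGCGG in 6 of 15 and 35.7%, CACGTG in 1 of 15 and 7.15%, and TCACNCCAC, a form of the sterol response element, in 1 of 15 (the inner start of Mlxipl) and 1.24%. These letter matches are descriptions of the sequence and were not tied to any binding measurement.

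**Figure D1:**
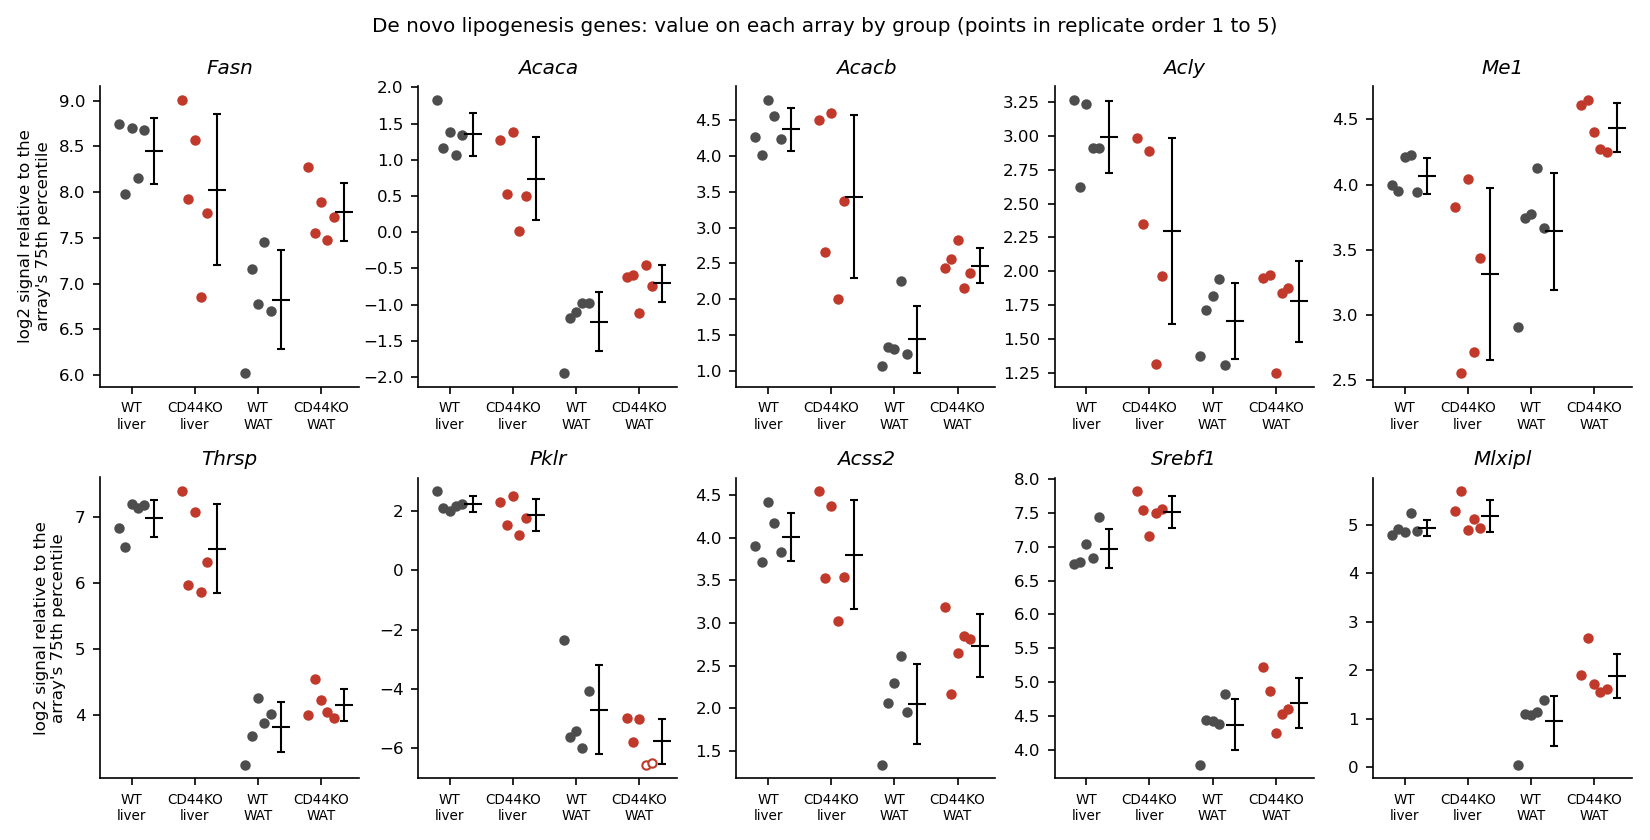
Normalized log2 signal of the 10 lipogenic genes on each of the 20 arrays, by group, with the 5 points of a group in the order of their replicate numbers; open points were not well above background, and the bar beside each group gives its mean ± SD (n = 5). In liver the CD44KO(HFD) points spread widely for the enzymes, while in WAT the CD44KO(HFD) points of Fasn, Me1 and Mlxipl lie above all WT(HFD) points; each panel has its own scale.

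In liver, 8 of the 10 genes had a lower mean in CD44KO(HFD) than in WT(HFD) mice and 2, the transcription factors Srebf1 and Mlxipl, a higher one, also under quantile, median and normexp scaling. The median difference of the 10 genes was -0.44, against 0.08 over all 24689 probes tested. It was -0.25 without CD44KO(HFD) replicate 4, -0.67 without replicate 1, and between these values when any other array was left out. None of the 8 genes with a lower mean passed the threshold, against 5.75% of all probes that passed as lower, and 1 gene, Srebf1, passed as higher, against 7.85% of all probes (13.6% in either direction). Over all probes 1420 passed as lower and 1938 as higher, a split that became 425 and 216 with normexp background correction. At an unadjusted p under 0.05, 3 of the 10 genes were lower (11.8% of all probes) and 1 was higher (20.4%). The groups overlapped for all 10 genes, whereas 11.7% of all probes had none.

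Srebf1 read 6.74, 6.77, 7.05, 6.84 and 7.44 on the 5 WT(HFD) liver arrays and 7.82, 7.54, 7.16, 7.50 and 7.55 on the 5 CD44KO(HFD) arrays. All CD44KO(HFD) livers were above the WT(HFD) mean, and the groups overlapped only through the highest WT(HFD) array, replicate 5, and the lowest CD44KO(HFD) array, replicate 3. Srebf1 rose by 0.55 (SE 0.16, 1.46-fold, limma adjusted p = 0.0448, exact two-sided permutation p = 0.0159 over 252 relabellings). The call did not hold when any 1 of 8 of the 10 arrays was left out (adjusted p 0.0211 to 0.104 over the 10 fits, it held in the fits that dropped CD44KO(HFD) replicate 3 or WT(HFD) replicate 5), nor with normexp (0.43, adjusted p = 0.312), quantile normalization (0.067) or the replicate block (0.0922). Within slides 1, 2 and 3 the difference was 0.27, 0.72 and 0.77. The files do not say which of the transcripts of Srebf1 this probe reads.

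Mlxipl, the second transcription factor, was higher by 0.25 (SE 0.15, adjusted p = 0.289) by its brightest probe. Its second probe gave 0.43 (SE 0.13, adjusted p = 0.0477), so the 2 probes fell on different sides of the threshold. The WT(HFD) livers lay between 4.79 and 5.23 and the CD44KO(HFD) livers between 4.90 and 5.69, with wide overlap.

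Me1 read 4.0, 3.95, 4.21, 4.23 and 3.94 on the WT(HFD) liver arrays and 3.82, 2.55, 4.04, 2.72 and 3.43 on the CD44KO(HFD) arrays. All 5 CD44KO(HFD) values were below the WT(HFD) mean, but replicate 3 lay within the WT(HFD) range, replicate 1 close below it and replicates 2 and 4 far under it. The difference was -0.75 (SE 0.27, 1.69-fold lower, adjusted p = 0.0886, exact permutation p = 0.0317), and -0.93 with an adjusted p of 0.0298 when CD44KO(HFD) replicate 3 was left out. The Mod1 probe gave -0.82 (SE 0.28, adjusted p = 0.078). Within slides 1, 2 and 3 the Me1 difference was -0.23, -1.46 and -0.39.

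Among the enzymes that make acetyl-CoA, Acly read 3.27, 2.62, 3.23, 2.91 and 2.91 in WT(HFD) liver and 2.98, 2.35, 2.88, 1.31 and 1.96 in CD44KO(HFD) liver. All CD44KO(HFD) values lay below the WT(HFD) mean, and the difference of -0.69 (SE 0.30, adjusted p = 0.139, exact permutation p = 0.0714) did not pass. Acss2 was at 4.01 ± 0.28 (SD, n = 5) against 3.8 ± 0.64 (SD, n = 5), with an interval of the difference from -0.83 to 0.42. Its 2 other tested probes gave -0.38 (adjusted p = 0.383) and -0.51 (adjusted p = 0.283). Pklr was at 2.22 ± 0.26 (SD, n = 5) against 1.85 ± 0.55 (SD, n = 5, adjusted p = 0.316).

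Of the carboxylases, Acacb, the form that sits at the mitochondrial membrane, read 4.26, 4.01, 4.78, 4.55 and 4.24 in WT(HFD) liver and 4.49, 2.66, 4.60, 2.0 and 3.37 in CD44KO(HFD) liver. Of the CD44KO(HFD) livers, 2 lay within the WT(HFD) range and 3 below all WT(HFD) values, for a difference of -0.94 (SE 0.47, adjusted p = 0.193). The second, much dimmer Acacb probe went the other way, at 0.24 (SE 0.52, adjusted p = 0.784). Acaca, the cytosolic form, was lower by 0.61 (SE 0.26, adjusted p = 0.136). The dimmest of its 4 probes gave -0.83 (SE 0.23, adjusted p = 0.044) with no overlap of the groups (4.22% of all probes did not overlap in that direction), while the other 2 gave -0.04 and -0.26. That dimmest probe was well above background on all 5 WT(HFD) but only 2 of the 5 CD44KO(HFD) liver arrays, so it passed the filter through the group where it was higher and its size rests in part on values near the background. Fasn read 8.74, 7.98, 8.70, 8.15 and 8.68 against 9.01, 7.93, 8.57, 6.85 and 7.77, a difference of -0.42 (SE 0.36, adjusted p = 0.449), with the highest and the lowest of the 10 values both in CD44KO(HFD) mice. Its second, dimmer probe gave -0.86 (SE 0.45, adjusted p = 0.215). Thrsp differed by -0.46 (SE 0.30, adjusted p = 0.314).

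The spread of the enzymes within the CD44KO(HFD) livers followed the array. Replicates 2, 4 and 5 were each among the lowest 3 of the 10 liver arrays for 8 of the 10 genes, and replicate 4 was the lowest for 7. Replicates 1 and 3 were among the highest 3 for 7 and 5 genes. The SD of Acacb was 1.13 in CD44KO(HFD) against 0.30 in WT(HFD) liver, that of Me1 0.66 against 0.14 and that of Fasn 0.82 against 0.36, whereas Srebf1 had 0.24 against 0.29. Of the 10 genes, 7 were lower in CD44KO(HFD) within slide 1 (2 arrays of each genotype), 8 within slide 2 (2 of each) and 4 within slide 3 (1 of each). CD44KO(HFD) replicates 2 and 4 were the CD44KO(HFD) arrays of slide 2, and replicate 5 lay on slide 1. Within slides 1, 2 and 3 the difference was -0.26, -1.95 and -0.28 for Acacb and -0.54, -0.67 and 0.31 for Fasn. Over the same arrays the summed level of the 10 adipocyte markers was 104 to 133 in WT(HFD) and 26.8 to 97.2 in CD44KO(HFD) liver, of which Cidec, a lipid droplet protein that fatty liver also makes, fell by 2.12 (adjusted p = 0.0486). Of the other adipocyte markers, Cfd (-1.28), Fabp4 (-0.57) and Pparg (-0.29) were lower without passing the threshold (limma adjusted p from 0.148 to 0.249). Lipe (0.02) and Pnpla2 (0.05) had differences near 0. Adipoq, Lep, Plin1 and Retn were well above background on at most 2 of 5 arrays of either liver group. The summed level of the fibroblast markers was 98.8 to 152 against 62.8 to 96.5. That of the hepatocyte markers was 2187 to 2928 against 2793 to 3264, all as linear signals relative to the 75th percentile. The Kupffer cell markers summed to 28.1 to 82.1 against 70.7 to 188 (Marco and Timd4 rose by 2.95 and 2.99, adjusted p = 0.0410 and 0.0414). Macrophage markers overlapped, at 66.6 to 132 against 49.7 to 136. Of these, Itgax (-2.01) and Mpeg1 (-0.96) fell (limma adjusted p = 0.0284 and 0.0103), while Adgre1 (0.50) did not pass. T cell markers summed to 1.57 to 2.78 against 1.29 to 1.82. Cd8a (-3.16), Cd3d (-1.04), Lck (-0.90) and Cd3g (-0.84) fell (limma adjusted p from 0.00296 to 0.0288), while Cd4 (0.20) and Cd3e (0.12) did not pass. Cd8a was well above background on 0 of the 5 CD44KO(HFD) arrays. The erythroid markers summed to 59.4 to 97.4 against 84.4 to 159, and the brown adipocyte markers to 41.4 to 75.2 against 3.5 to 51.9. The brown adipocyte sum was largely Cidea, which differed by -2.15 (limma adjusted p = 0.0823). Of the other markers in that sum, Ppargc1a differed by 0.01. Ucp1 and Dio2 were well above background on 0 and 1 of the 5 arrays of each liver group. The part of all these markers in the differences was not tested. In RNA of whole tissue, fewer cells of a type and less RNA per cell cannot be told apart.

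**Figure D2:**
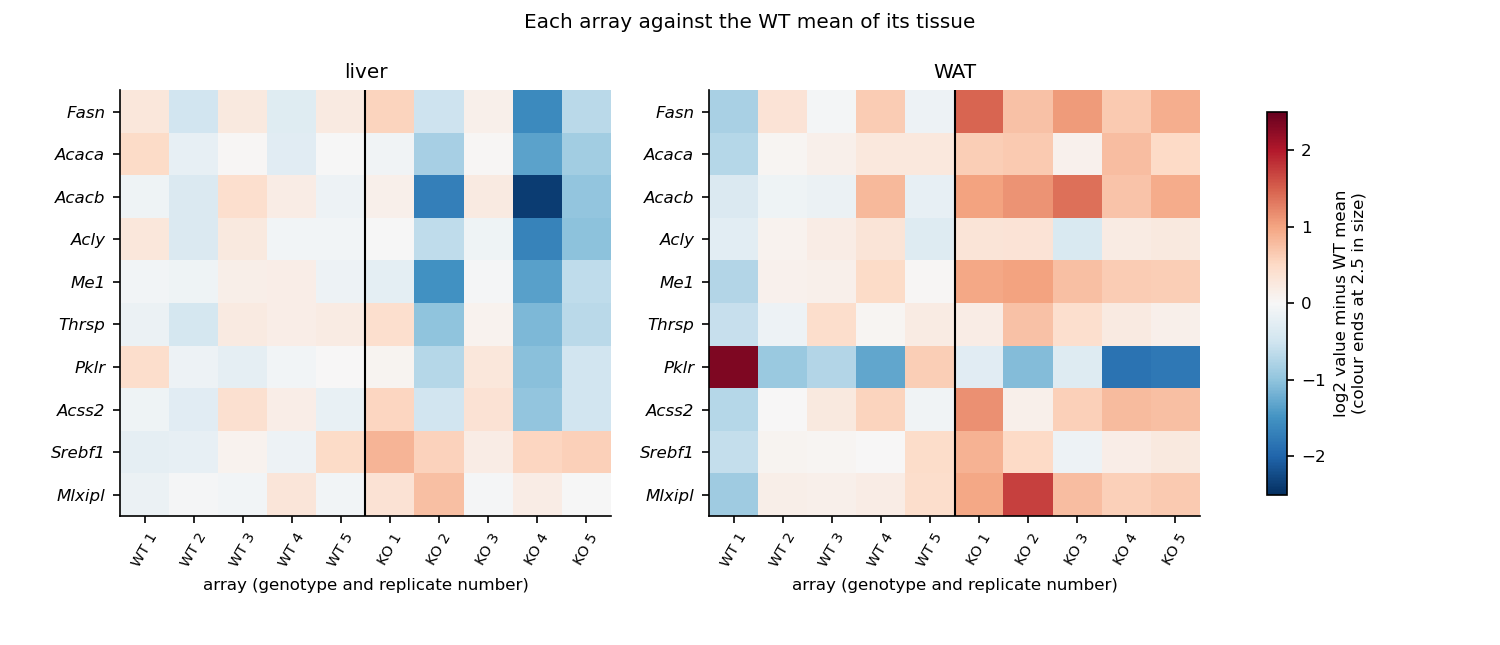
Each of the 10 genes on each of the 20 arrays as its log2 value minus the WT(HFD) mean of that gene in that tissue, with WT arrays left and CD44KO (KO) arrays right of the line in each panel. CD44KO(HFD) liver replicates 2, 4 and 5 were low for the enzymes but not for Srebf1 and Mlxipl, and WT(HFD) WAT replicate 1 was low for all genes but Pklr, where it was highest.

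In WAT, 9 of the 10 genes had a higher mean in CD44KO(HFD) mice and 1, Pklr, a lower one, a count that was the same under quantile, median and normexp scaling and without WT(HFD) replicate 1. Median scaling moved the median of all probes in WAT from -0.06 to 0.42, and relative to the median of all probes 9 genes were higher under that scaling and 8 under quantile normalization. No gene passed the threshold, as against 0.0398% of all probes (11 of 27653). At an unadjusted p under 0.05, 6 of the 10 genes were higher, against 8.27% of all probes in that direction, and 5 of the 10 when WT(HFD) replicate 1 was left out, against 14.9% of all probes in either direction. Without that array 0 of the 10 genes and 0.136% of all probes passed the threshold. The groups did not overlap for 3 genes, all higher in CD44KO(HFD), against 4.07% of all probes. The median difference of the 10 genes was 0.61 with all arrays and 0.43 without WT(HFD) replicate 1.

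Fasn was 1 of the genes without overlap, with 6.02, 7.16, 6.77, 7.45 and 6.70 in WT(HFD) WAT and 8.27, 7.55, 7.89, 7.47 and 7.73 in CD44KO(HFD) WAT. The gap between the groups was narrow, since WT(HFD) replicate 4 nearly reached CD44KO(HFD) replicate 4. The difference was 0.96 (SE 0.27, 1.95-fold, adjusted p = 0.198, exact permutation p = 0.00794, the smallest that 252 relabellings give) and 0.76 (SE 0.22, adjusted p = 0.166) without WT(HFD) replicate 1. Its second, dimmer probe gave 1.31 (SE 0.26, adjusted p = 0.15), also without overlap. Within slides 4 and 5, the slides that held both genotypes, the Fasn difference was 0.90 and 1.01.

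Me1 read 2.90, 3.74, 3.77, 4.12 and 3.66 in WT(HFD) WAT and 4.61, 4.65, 4.40, 4.27 and 4.25 in CD44KO(HFD) WAT. Each CD44KO(HFD) value was above each WT(HFD) value, by a difference of means of 0.79 (SE 0.22, 1.73-fold, adjusted p = 0.192, exact permutation p = 0.00794), or 0.61 (SE 0.16, adjusted p = 0.136) without WT(HFD) replicate 1. The Mod1 probe gave 0.76 (SE 0.25, adjusted p = 0.227). Within slides 4 and 5 the Me1 difference was 0.94 and 0.68.

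Mlxipl read 0.06, 1.09, 1.08, 1.13 and 1.39 in WT(HFD) WAT and 1.91, 2.66, 1.72, 1.55 and 1.61 in CD44KO(HFD) WAT, without overlap. The difference of 0.94 (SE 0.29, 1.92-fold, adjusted p = 0.217, exact permutation p = 0.00794) became 0.72 (SE 0.23, adjusted p = 0.201) without WT(HFD) replicate 1, the lowest array. The second probe gave 0.49 (SE 0.17, adjusted p = 0.242), also without overlap. Srebf1, the other transcription factor, differed by 0.33 (SE 0.24, adjusted p = 0.515), or by 0.18 (SE 0.21, limma adjusted p = 0.714) without WT(HFD) replicate 1.

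Acacb read 1.07, 1.33, 1.30, 2.26 and 1.24 in WT(HFD) WAT and 2.44, 2.56, 2.82, 2.16 and 2.36 in CD44KO(HFD) WAT. A single WT(HFD) array, replicate 4, reached into the CD44KO(HFD) range. The difference was 1.03 (SE 0.24, 2.04-fold, adjusted p = 0.168, exact permutation p = 0.0159) and 0.93 (SE 0.24, adjusted p = 0.135) without WT(HFD) replicate 1. The second Acacb probe, much dimmer, gave -1.34 (SE 1.20, adjusted p = 0.592) with all arrays and -0.04 (SE 0.32) without WT(HFD) replicate 1. Acaca was higher by 0.53 (SE 0.22, adjusted p = 0.305), or by 0.35 (SE 0.16, limma adjusted p = 0.337) without WT(HFD) replicate 1. The 3 dimmer Acaca probes had differences from -0.94 to -0.38 with all arrays, and the 2 of them that could still be tested without WT(HFD) replicate 1 gave 0.43 and 0.55.

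Acss2 had a difference of 0.68 (SE 0.26, adjusted p = 0.274, exact permutation p = 0.0317), with all 5 CD44KO(HFD) values above the WT(HFD) mean. Without WT(HFD) replicate 1 the Acss2 difference was 0.50 (SE 0.22, limma adjusted p = 0.328). Acly, by contrast, hardly differed, at 1.63 ± 0.28 (SD, n = 5) in WT(HFD) and 1.78 ± 0.30 (SD, n = 5) in CD44KO(HFD) WAT, with an interval of the difference from -0.29 to 0.58. That interval ran from -0.36 to 0.52 without WT(HFD) replicate 1. Thrsp differed by 0.34 (SE 0.21, adjusted p = 0.46), or by 0.19 (SE 0.18, limma adjusted p = 0.632) without WT(HFD) replicate 1. Pklr was dim in WAT, well above background on only 3 of the 5 CD44KO(HFD) arrays, and its difference of -1.07 (SE 0.67) became -0.49 (SE 0.46) without WT(HFD) replicate 1.

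In WAT the summed level of the 10 adipocyte markers ran from 565 to 972 in WT(HFD) (lowest in replicate 1) and from 854 to 1428 in CD44KO(HFD). The groups overlapped, with medians of 840 and 979. The mast cell markers were lower in CD44KO(HFD), 18.3 to 44.6 against 1.3 to 10.7, and the macrophage markers overlapped, 338 to 478 against 338 to 440. Hepatocyte markers were at 4.3 to 38.6 and 11.8 to 50.8, mesothelium markers at 2.31 to 11.4 and 1.04 to 3.49, and erythroid markers at 14.9 to 59.6 and 40.7 to 160.2. T cell markers were at 0.69 to 6.30 and 0.39 to 1.03, and B and plasma cell markers at 2.14 to 39.4 and 1.02 to 3.91. WT(HFD) replicate 5 alone set both upper ends of these lymphocyte markers in WT(HFD). The other WT(HFD) arrays reached at most 2.04 and 5.18 and overlapped CD44KO(HFD). No single adipocyte, mast cell or mesothelium marker passed the threshold in WAT. The part of these shifts in the differences of the lipogenic genes was not tested. Within slide 4, with 2 arrays of each genotype, 9 of the 10 genes were higher in CD44KO(HFD), and within slide 5, with 1 CD44KO(HFD) and 3 WT(HFD) arrays, 7 of the 10. Slide 6 held CD44KO(HFD) arrays only.

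**Figure D3:**
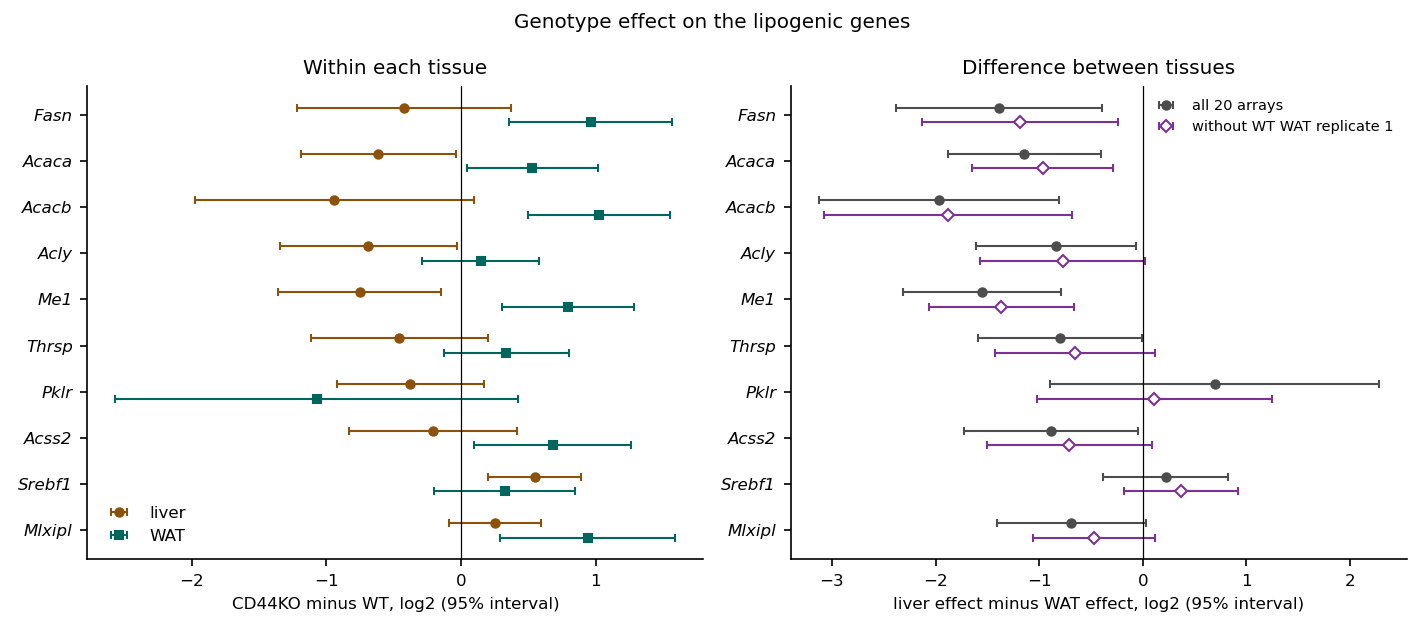
Left, CD44KO minus WT on the log2 scale for the 10 genes in liver (circles) and WAT (squares); right, the liver difference minus the WAT difference with all 20 arrays (filled) and without WT(HFD) WAT replicate 1 (open); bars are 95% intervals. Fasn, Acaca, Acacb, Acly, Me1, Thrsp and Acss2 lay below 0 in liver and above 0 in WAT, and Me1 alone passed the threshold on the right with all arrays.

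To compare the genotype effect between tissues, the liver difference minus the WAT difference was tested over all 20 arrays. It was negative for 8 of the 10 genes and positive for Pklr and Srebf1, except that under quantile normalization Pklr (-0.11) and under median scaling Srebf1 (-0.25) were negative too. The median over the 10 genes was -0.86, against 0.13 over all 28988 probes. Me1 passed the threshold, as 1 of 10 genes against 0.873% of all probes that passed as negative and 1.15% in either direction. At an unadjusted p under 0.05, 7 of the 10 genes were negative, against 8.2% of all probes, and 4 of the 10 genes passed that value without WT(HFD) WAT replicate 1, against 16.6% of all probes in either direction. Without that array 0 of the 10 genes passed the threshold, against 1.27% of all probes.

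For Me1 the difference between tissues was -1.55 (SE 0.36, limma adjusted p = 0.0462): it was lower by 0.75 in CD44KO(HFD) liver and higher by 0.79 in CD44KO(HFD) WAT. Without WT(HFD) WAT replicate 1 it was -1.36 (adjusted p = 0.0515), and with the slide as a block -1.58 (0.0514). Over the 20 fits that left out 1 array the adjusted p lay between 0.0137 and 0.0877, and the call was kept in 3 of them, those without CD44KO(HFD) liver replicate 3, WT(HFD) WAT replicate 4 or CD44KO(HFD) WAT replicate 4. With median scaling it was -2.02 (adjusted p = 0.266), or -1.68 relative to the median of all probes, which that scaling placed at -0.34. The Mod1 probe gave -1.58 (SE 0.39, adjusted p = 0.0551). The fit of the difference shares 1 spread over the 4 groups, whereas the groups differed in spread. The SD of Me1 was 0.14 in WT(HFD) and 0.66 in CD44KO(HFD) liver, and 0.45 and 0.19 in WAT.

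By its brightest probe, Acacb differed between tissues by -1.97 (SE 0.55, adjusted p = 0.0828, -1.88 without WT(HFD) WAT replicate 1). Its second, dimmer probe gave 1.58 (SE 1.38, adjusted p = 0.594), or 0.28 without that array. Fasn differed by -1.39 (SE 0.47, adjusted p = 0.152), and its second probe by -2.17 (SE 0.55, adjusted p = 0.0592). Acaca differed by -1.14 (SE 0.35, adjusted p = 0.113), and its 3 dimmer probes by 0.11 to 0.44, which became -1.10 to -0.47 without WT(HFD) WAT replicate 1. Acss2, Acly, Thrsp and Mlxipl lay between -0.89 and -0.69, with adjusted p from 0.277 to 0.337, while the second Mlxipl probe gave -0.06 (SE 0.21, adjusted p = 0.907). For Srebf1 the interval of the difference ran from -0.38 to 0.83, so the genotype effects in the 2 tissues were not told apart.

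The genes that act beside the pathway were taken from 5 lists, whose medians are set beside the median of all probes, 0.08 in liver, -0.06 in WAT and 0.13 for the difference between tissues. Among 17 regulators of SREBP and ChREBP activity, 16 were tested in liver, where 2 rose in CD44KO(HFD) mice and none fell, against 7.85% of all probes called as higher and 5.75% as lower. Scap, which escorts SREBP from the endoplasmic reticulum for activation, rose by 0.58 (SE 0.09, adjusted p = 0.00952), and Mid1ip1, a partner of Thrsp that promotes polymerization of acetyl-CoA carboxylase, rose by 0.56 (adjusted p = 0.0422). With normexp neither passed, and with quantile normalization only Scap did. The median of the list in liver was 0.10. In WAT 0 of 16 regulators passed, with a median of 0.08 (-0.05 with quantile normalization), and 1 had an unadjusted p under 0.05.

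Of the 21 genes that supply carbon and NADPH, 3 fell and 3 rose in CD44KO(HFD) liver, beside 5.75% and 7.85% of all probes. Pdk4, a kinase that shuts down pyruvate dehydrogenase in fasting and fat feeding, fell by 1.18 (SE 0.20, adjusted p = 0.0122), the mitochondrial acetyl-CoA synthetase Acss1 fell by 0.88 (SE 0.22, adjusted p = 0.0286), and Pgd, an NADPH-making enzyme of the pentose phosphate pathway, fell by 0.73 (adjusted p = 0.0491). The glucose transporter Slc2a2 rose by 0.42 (adjusted p = 0.026), the mitochondrial malic enzyme Me3 by 0.51 (adjusted p = 0.0329) and the NADPH-making isocitrate dehydrogenase Idh1 by 0.22 (adjusted p = 0.0494). Of these 6, Pdk4 and Pgd passed with normexp, Pdk4, Me3, Acss1 and Pgd with quantile normalization, and Slc2a2, Pdk4, Me3 and Acss1 with median scaling. In WAT 0 of the 21 passed, 18 had a positive difference (also without WT(HFD) replicate 1) and 6 had an unadjusted p under 0.05 as higher (8.27% of all probes). The median was 0.45, or 0.26 without WT(HFD) replicate 1. With quantile normalization it was 0.24 against 0.11 over all probes, and 12 genes lay above the median of all probes and 9 below it. Pdk4 differed between tissues by -1.90 (SE 0.43, adjusted p = 0.0425), which became -1.79 (adjusted p = 0.0515) without WT(HFD) WAT replicate 1 and passed with normexp but not with quantile or median scaling.

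The 12 genes of the products of the pathway and of targets shared with it, such as Scd1, Elovl6 and Gpam, had 0 calls in liver and 0 in WAT. Of them, 5 had an unadjusted p under 0.05 as lower in liver, beside 11.8% of all probes, and 5 as higher in WAT, beside 8.27%. Their medians were -0.60 in liver and 0.37 in WAT. Among 11 genes that control acetyl-CoA carboxylase and malonyl-CoA, 1 fell and 2 rose in liver, beside the same 5.75% and 7.85% of all probes. The AMPK subunit Prkab2 fell in CD44KO(HFD) liver by 0.56 (adjusted p = 0.0214), and Mlycd, the malonyl-CoA decarboxylase, rose by 0.36 (adjusted p = 0.0161), as did Mcat, of mitochondrial fatty acid synthesis, by 0.33 (adjusted p = 0.0351). All 3 calls held with quantile and median scaling and none with normexp. In WAT 0 of the 11 passed, and 0 had an unadjusted p under 0.05.

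The 15 sterol synthesis and uptake genes, textbook targets of SREBP-2, all had negative differences in CD44KO(HFD) liver under all 4 scalings, with a median of -0.44 and 0 calls (2 with an unadjusted p under 0.05, beside 11.8% of all probes). In WAT 13 of 15 were positive, with a median of 0.48, 0 calls and 6 with an unadjusted p under 0.05 as higher (8.27% of all probes), and without WT(HFD) replicate 1 all 15 were positive with a median of 0.33. The difference between tissues was negative for all 15 (14 with normexp), with a median of -1.05. Lss, lanosterol synthase, passed at -1.33 (SE 0.30, adjusted p = 0.0445), which became -1.22 (adjusted p = 0.0522) without WT(HFD) WAT replicate 1. It passed with normexp and quantile normalization and not with median scaling.

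**Figure D4:**
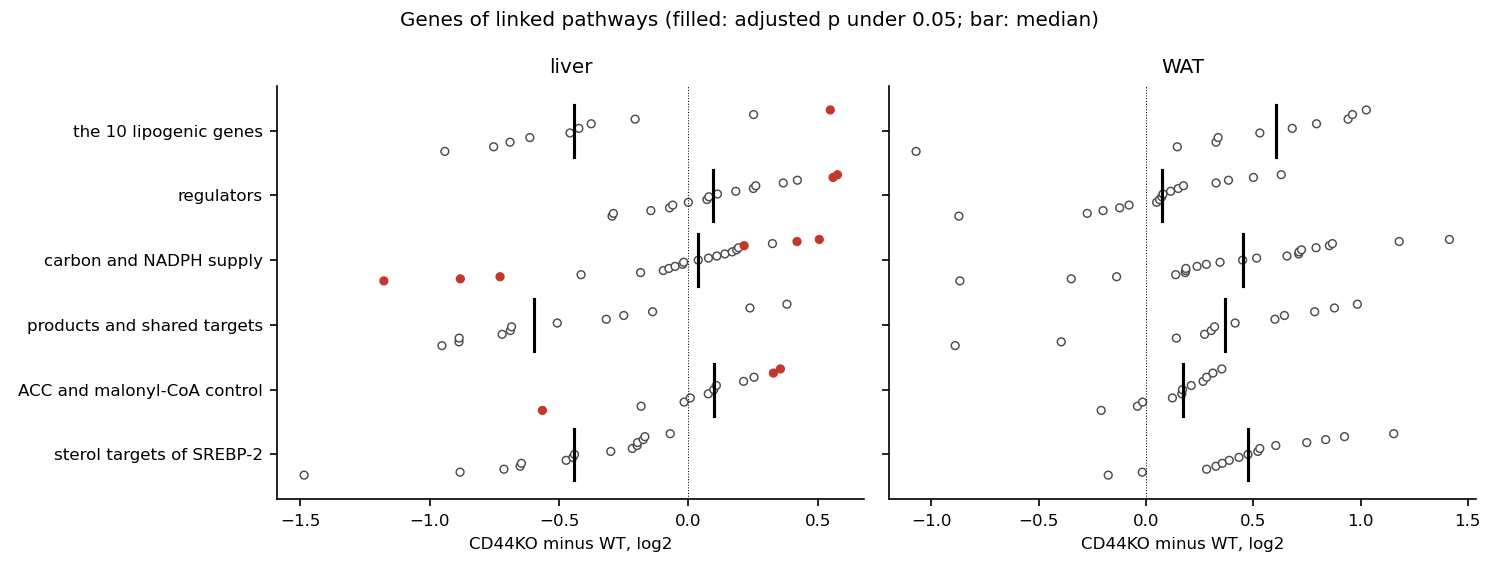
CD44KO minus WT on the log2 scale for the 10 lipogenic genes and for each tested gene of 5 linked lists, in liver (left) and WAT (right); filled points passed an adjusted p of 0.05 and the bars mark the medians. In liver the called genes are Srebf1, 2 regulators, 6 genes of carbon and NADPH supply and 3 of malonyl-CoA control; in WAT there is none.

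As a description, the genes whose values most resembled the mean of the 10 lipogenic genes over the 10 arrays of a tissue were found by Pearson's r, without a test. In liver, among 12318 genes, they were Cyb5r3, which supplies electrons to fatty acid desaturases (r = 0.952), the elongase Elovl6 (0.949), Pdzk1ip1 (0.943), the desaturase Fads1 (0.941) and Exosc6 (0.941). In WAT, among 13126 genes, they were Pcbd1 (0.988), Cyb5rl (0.988), Nudt7, a peroxisomal coenzyme A diphosphatase (0.987), Mcrip2 (0.983) and H4c6 (0.981). The WAT values share WT(HFD) replicate 1, the array that stood apart.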

How the data were processed

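The 10 genes, the linked gene lists and the marker lists were chosen with earlier results of these data known. The authors hybridised the RNA of each sample, labelled with a single dye, to 1 Agilent array. The deposited values are linear fluorescence intensities from Agilent Feature Extraction (9.5 in the submitters' processing notes, 9.5.3.1 in the file headers), detrended within the array, without background subtraction and with estimates in place of the dimmest signals. The deposited series values equal these intensities on all 20 arrays. Marks for spots well above background (13 SD) or outlying came from the same files. Gene names are those of the files, updated by accession through RefSeq for 22944 of 41174 probes, and Me1 is named Mod1 in the files. The paper's text gives no normalization or test for the arrays.

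The log2 intensity without outlying spots was centred on the 75th percentile of each array, taken over 43379 non-control spots, and averaged by probe. A probe was tested where 3 or more of the 5 arrays in some group showed it well above background. Tests used the linear models of limma 3.58.1 with its eBayes step, under R 4.3.3 with statmod 1.5.0, Benjamini-Hochberg adjustment over all probes tested and a threshold of 0.05. Each tissue was fitted alone, and the difference between tissues over all 20 arrays. Single genes also had an exact two-sided permutation test over 252 relabellings (smallest p 0.0079). The genes named are the 10 genes, Cd44, the called genes of each list (at most the 4 with the smallest p per list and comparison), the 5 genes most alike in each tissue, and markers and example genes of the lists. Pgd and Idh1 fall outside this rule and were named after their values were seen.

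Alternatives were normexp background correction (offset 50), quantile normalization, median scaling, no filter or a stricter filter, the mean over probes, array weights, a trended and robust prior, replicate and slide blocks, a fit of all 20 arrays, and leaving out each array. Fits of the lists and of single probes without WT(HFD) WAT replicate 1 or under other scalings, and normexp combined with leaving out that array, were added after seeing the data. The fits were tested on simulated data. The number of arrays limits the precision.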

Additional observations from a re-analysis of the deposited data

Results flagged for a closer look

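Within groups of 5 arrays, 5 of the 40 gene and group combinations had 1 array whose gap to the nearest other was over 0.71 of the group's range, where chance gives about 1 in 20. Acaca in WT(HFD) WAT replicate 1 read -1.94, with the other 4 arrays between -1.18 and -0.97, and Mlxipl on the same array read 0.057, with the others between 1.08 and 1.39. Acacb in WT(HFD) WAT replicate 4 read 2.26, with the others between 1.07 and 1.33, Acly in CD44KO(HFD) WAT replicate 3 read 1.25, with the others between 1.84 and 1.97, and Mlxipl in WT(HFD) liver replicate 4 read 5.23, with the others between 4.79 and 4.91. The genotype effect on Me1 differed between liver and WAT by -1.55 in a test of the difference itself (limma adjusted p = 0.0462).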

How the results depend on the processing

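In liver, the count of 1 gene past the threshold (Srebf1) became 0 with normexp, quantile normalization, no filter, array weights, the replicate block and the fit of all 20 arrays, and was 0 to 2 when 1 array was left out. In WAT, the count of 0 became 6 with array weights (Fasn, Acaca, Acacb, Me1, Mlxipl and Acss2), 1 with the trended and robust prior (Acacb) and 1 with the fit of all 20 arrays (Mlxipl), and stayed at 0 to 0 when 1 array was left out. For the difference between tissues, the count of 1 (Me1) became 2 with normexp (Acacb and Me1) and with array weights (Acaca and Me1), 0 with median scaling, no filter and the slide block, and 0 to 2 when 1 array was left out. In WT(HFD) liver against WAT the count of 9 was 8 to 10 throughout. The cause of these changes was not tested. Directions reversed for Acaca (-0.32) and Acacb (-0.15) in WAT with the mean over probes, Acly in WAT with the slide block (-0.0049), Pklr with quantile normalization (-0.11) and Srebf1 with median scaling (-0.25) in the difference between tissues, and Fasn (-0.051) and Me1 (-0.34) in liver against WAT with quantile normalization.

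The number of probes called in liver, 3358, was 641 with normexp, 1027 with no filter, 1329 with the replicate block, 638 with all 20 arrays and 924 to 4695 with 1 array left out. In WAT, 11 became 35 with normexp (41 also without WT(HFD) WAT replicate 1), 19 with median scaling, 3 with no filter and with the replicate block, 4 with the slide block, 143 with the robust prior, 2831 with array weights, 1647 with all 20 arrays and 3 to 37 with 1 array left out. For the difference, 334 became 20 with median scaling, 77 with no filter, 599 with the robust prior, 621 with the slide block, 2477 with array weights and 84 to 582 with 1 array left out. Called probes in WT(HFD) liver against WAT split into 9513 lower and 9852 higher, and into 6788 and 11093 with normexp. No pairing of the samples by replicate number was shown. In their deviations from the group mean, same-numbered liver and WAT arrays correlated above 0.1 in 1 of 5 pairs in each genotype. Same-numbered WT(HFD) and CD44KO(HFD) arrays, which cannot be the same mouse, did so in 3 of 5 pairs in liver and 1 of 5 in WAT. Some of the latter pairs shared a slide (liver replicates 2, 4 and 5 and WAT replicate 3), so these counts do not bear on animals. With the replicate block Srebf1 in liver had an adjusted p of 0.0922 and a count of 0, WAT stayed at 0, and the difference with genotype and replicate number as a random block, which no label ties to an animal, stayed at 1. Dim probes set the limit of depth, as with Pklr in WAT.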
